A study of Mus musculus with 6 samples.

Results

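The baseline transcriptome of the glomerulus was described from the 3 arrays of wild-type mice, of 6 arrays in the series. They were chosen by their labels alone, as the arrays whose titles call them wild type. The arrays of mice with Vhl deleted in podocytes were not used here. Each wild-type array carried total RNA from glomeruli of a female mouse 6 weeks old, collected with magnetic beads.

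The mice are called wildtype controls, and the study text calls them littermates of mice with a Pod-Cre transgene, which drives Cre recombinase in podocytes, and floxed Vhl alleles (fVHL). The parents carried 1 copy of Pod-Cre and were homozygous for the floxed Vhl locus, per the labels. The sources used here do not say whether these controls carried floxed alleles without Cre. Urine albumin was measured at 4 weeks of age in these litters.

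The glomerulus is the filter of the kidney. Fenestrated endothelial cells line its capillaries, and podocytes cover the outside with foot processes joined by slit diaphragms. A basement membrane lies between both layers, and mesangial cells hold the capillary loops together. Parietal epithelial cells line the surrounding capsule, and the proximal tubule leaves from it. Beads perfused into the kidney lodge in glomerular capillaries, so that glomeruli can be pulled out with a magnet, and pieces of tubule can come along. In such bulk tissue, fewer cells of a type and less RNA per cell cannot be told apart.

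Values are MAS5 signals, which combine the probes of a probe set into 1 brightness on a linear scale, in arbitrary units. Brightness depends on the probes as well as on the transcript, so a rank by signal is not a rank by number of molecules. The median signal over all probe sets was 103, 94.6 and 96.8 in replicates 1, 2 and 3. A gene was kept when a probe set for it lay in the upper 50% by mean signal, a cut at 98.1, and the brightest such probe set stood for it, which gave 11153 genes. The range of a gene is its highest minus its lowest log2(signal + 27.9) over the 3 arrays, and a range of 1 is a 2-fold difference. One group of 3 arrays allows no test, and every mean and SD below is only as precise as 3 arrays make it.

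The arrays did not stand equally close to each other. Replicates 1 and 2 correlated at r = 0.982 over genes on the log2 scale, with a median difference of 0.14 and 135 genes that differed by 2-fold or more. Replicate 3 correlated at 0.943 with replicate 1 and at 0.936 with replicate 2, and differed from them by 2-fold or more at 819 and 901 genes. Replicate 3 was the dimmer array in 706 and 780 of these genes, kidney tubule transcripts among them. Replicate 2 stood apart in another way, with higher immediate early transcripts and different levels of circadian clock transcripts. The Gapdh 3′ to 5′ ratio, a sign of RNA quality, was 0.773, 0.777 and 0.824, and the actin ratio 1.38, 1.37 and 1.30. The part of RNA quality in these differences was not tested.

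The labelled sex was checked against defining transcripts, and the glomerular cell type lists were looked up. Xist, the RNA that coats the inactive X chromosome, had signals of 10748, 10766 and 12631. The probe sets of the Y-linked genes Eif2s3y, Kdm5d and Uty had mean signals between 6.50 and 33.5, below the cut. Vhl, the E3 ligase subunit deleted in the rest of the series, read 809, 665 and 707 in these controls (727 ± 74.1, SD, n = 3). Of the podocyte, endothelial and mesangial lists, 38 of 39, 32 of 33 and 18 of 21 genes with a probe set were kept. Over all genes, 11153 of 18193 were kept. The nephron tubule lists kept 65 of 67, so being kept does not tell glomerulus from tubule.

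The brightest kept gene by mean signal was Tmsb4x, an actin-sequestering thymosin, with signals of 34721, 35486 and 36813 (35673 ± 1059). Controls and probe sets with several gene symbols or none were not ranked. Next came the ribosomal protein gene Rps29 at 33585 ± 1331, the translation elongation factor Eef1a1 at 33154 ± 2252 and the chaperone Hspa8 at 32641 ± 3040. The membrane protein gene Itm2b at 32193 ± 2511 and the translationally controlled tumour protein gene Tpt1 at 31150 ± 1420 followed. The range of each of these 6 genes was under 0.30. Actb and Actg1, the cytoplasmic actins, read 29562 ± 1785 and 22448 ± 1529, and Tmsb10 read 24637 ± 1573.

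Genes of the glomerulus itself also stood among the 25 brightest. Plat, the tissue plasminogen activator of endothelial cells, read 27521, 32584 and 32446 (30850 ± 2884). Podxl, the sialomucin that coats podocyte foot processes, read 25462, 27034 and 30442 (27646 ± 2545). By these probe sets the highest array was 1.18 times the lowest for Plat and 1.20 times for Podxl. A second, far dimmer Plat probe set read 247, 162 and 349, a range of 0.99 with replicate 2 lowest. Enpep, an aminopeptidase that cleaves angiotensin, read 27372 ± 1568. Nrp1, a co-receptor for VEGF and semaphorins, read 24742 ± 1986, and Epas1, the hypoxia-inducible factor subunit HIF-2α, read 23843 ± 3442. A second Epas1 probe set read 1316, 1367 and 545, lowest in replicate 3, where the brighter one was highest. Igfbp7 and Igfbp5, which bind insulin-like growth factors, read 30664 ± 2066 and 26977 ± 4557, and Ccn2, connective tissue growth factor, read 26965 ± 3316.

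The 3 widest ranges among the 25 brightest genes were in genes that were lowest in replicate 3. ND5, a mitochondrially encoded subunit of respiratory complex I, read 38237, 37271 and 12882, a ratio of 2.97 between the highest and lowest array. Gpx3, a secreted glutathione peroxidase made in the proximal tubule, read 28793, 30218 and 17776. Akr1a1, an aldehyde reductase, read 30270, 34510 and 25154. Of these, ND5 alone had a range of 2-fold or more.

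The 500 brightest genes, 4.48% of those kept, carried 31.6% of the summed mean signal, and the dimmest of them read 6804. Among them were 33 of the 51 kept genes with a ribosomal protein symbol and 109 genes of the cell type and state lists described below. Ranges were small here: the median was 0.30, against 0.37 over all genes. Even so, 41 of the 500 (8.2%) had a range of 2-fold or more, against 9.92% of all genes. In 34 of the 41 replicate 3 was the low array.

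Podocyte transcripts were bright and measured in every array. Of 39 podocyte genes with a probe set, in lists of the slit diaphragm, transcription factors and other structural and membrane genes, 38 were kept, and 19 of these were among the 500 brightest. Their median signal was 6808, where the median over all kept genes was 755. Kirrel3, a relative of nephrin, was the dim member at 35.0 ± 16.1. A range of 2-fold or more was seen in 2 of the 38, where 9.92% of all genes had one. Their median range was 0.50, against 0.37 over all genes and 0.30 in the 500 brightest.

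At the slit diaphragm, Nphs1, which encodes nephrin, the adhesion protein that spans the slit, read 5679, 6698 and 9142 (7173 ± 1780). Ptpro, a receptor tyrosine phosphatase of the podocyte surface, read 11409, 12288 and 16646. Fat1, a giant protocadherin of the slit, read 8816, 8193 and 13584. Replicate 3 was the highest array in all of these. The junction scaffold Tjp1 (ZO-1) and the adaptor Cd2ap were steadier, at 12538 ± 1068 and 6378 ± 537. Plce1, a phospholipase C mutated in nephrotic syndrome, read 5785, 5771 and 8817. Robo2, a receptor for Slit ligands, was dim at 205, 59.7 and 147 and had the widest range of the list, 1.41.

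Of the podocyte transcription factors, Wt1, the zinc finger regulator of podocyte identity, read 6032, 5768 and 9031 (6944 ± 1813). The forkhead factors Foxc2 and Foxc1 read 3468, 3510 and 5990, and 3295, 3686 and 5179. All 3 genes were thus highest in replicate 3. Tcf21, a basic helix-loop-helix factor, ran the other way, at 8333, 7450 and 7021. Lmx1b, the LIM homeodomain factor of nail-patella syndrome, read 823 ± 112, and Dach1 2574 ± 569.

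Among structural genes, Synpo, the actin-binding synaptopodin of foot processes, read 15768, 18780 and 22136 (18895 ± 3185). Sema3g, a secreted semaphorin, read 21567 ± 1230, and Cdkn1c, the cell cycle inhibitor p57, 15082 ± 2697. Clic5, which links podocalyxin and ezrin to actin, read 14188 ± 775. Npnt, nephronectin, an integrin ligand of the basement membrane, read 12567 ± 1740. Actn4, an actin crosslinker mutated in familial focal segmental glomerulosclerosis, read 7424, 7141 and 11667, with replicate 3 clearly above the others. Vegfa, the growth factor that podocytes supply to the endothelium, read 6982 ± 322, with a range of 0.13, and by a second probe set 1409, 1367 and 2323. Bmp7, a growth factor of the developing nephron, was the exception with a 2-fold range, at 541, 1215 and 1062, but a second probe set read 420, 500 and 424 and did not repeat it.

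Over all 38 kept podocyte genes, the mean of log2(signal + 27.9) was 12.02, 12.04 and 12.41. Replicate 3 lay 0.37 above the mean of the other arrays and was the highest in 31 of the 38 genes, where it was highest in 44.1% of all genes. The summed signal of the structural list was 180919, 189696 and 224935. The difference between arrays rested on replicate 3: the range of the list mean was 0.51 for the slit diaphragm, 0.50 for the transcription factors and 0.39 for the structural genes, and without replicate 3 it was 0.16, 0.083 and 0.13. The nephron tubule lists moved the opposite way in the same array, by -1.48, and their part in the podocyte difference was not tested.

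**Figure D1:**
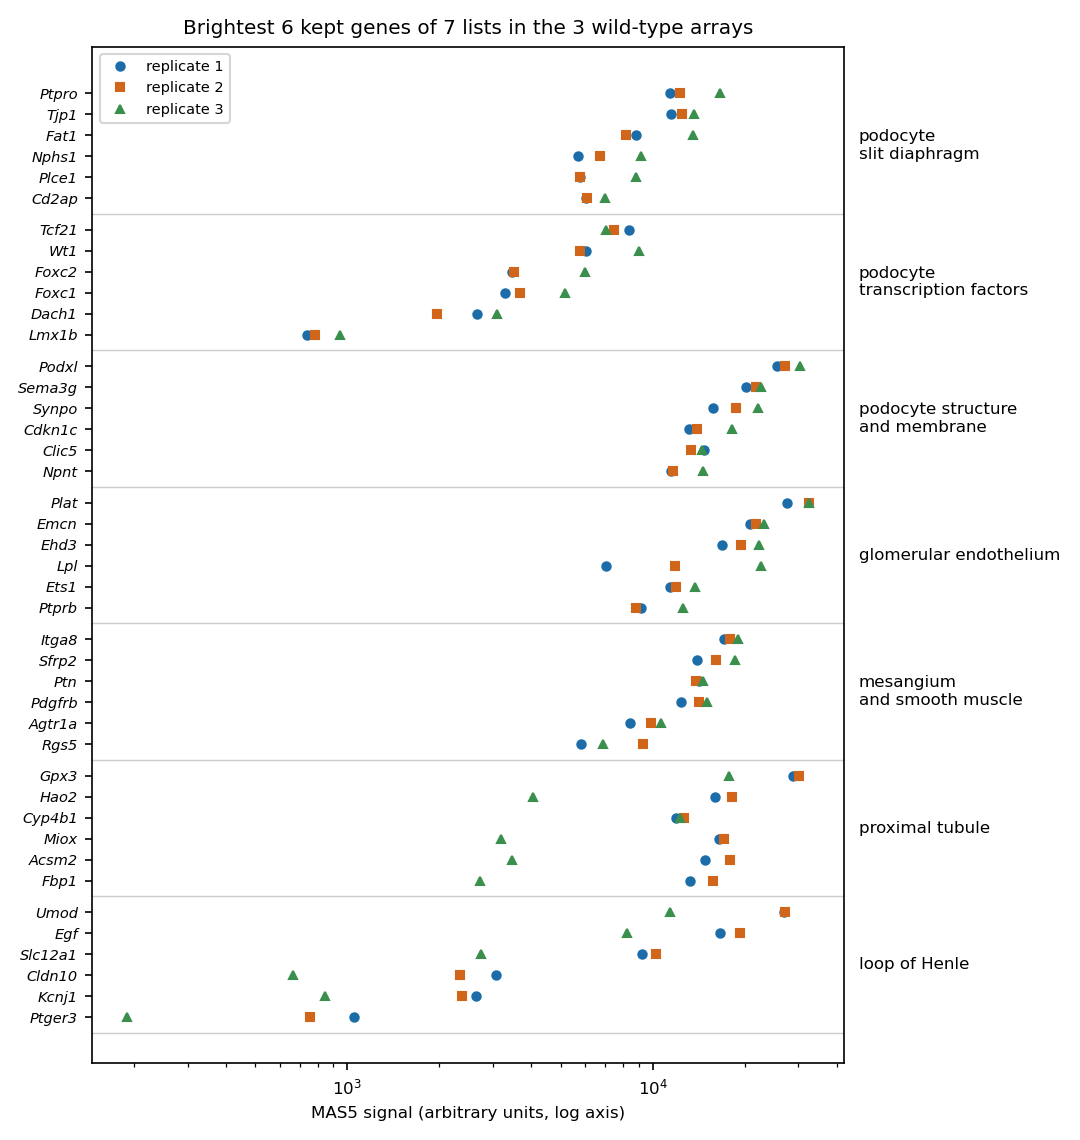
MAS5 signal on a log axis (arbitrary units) of the 6 brightest kept genes in each of 7 lists, with 1 marker per wild-type array. Podocyte, endothelial and mesangial genes have the 3 arrays close together, with Lpl the widest, while proximal tubule and loop of Henle genes such as Miox (16425, 17154 and 3193) have replicate 3 to the left, apart from Cyp4b1.

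The basement membrane genes were led by Col4a1 at 15726 ± 3365 and Col4a4 at 12876 ± 1295, chains of type IV collagen. The mature podocyte-made chains Col4a3 and Col4a5 read 5461 ± 707 and 7253 ± 2251. Of the laminin chains of the mature membrane, Lama5 read 887 ± 83.2, Lamb2 1479 ± 191 and Lamc1 1467 ± 201. Lama1 and Col4a6 were below the cut, at 59.9 ± 24.9 and 84.4 ± 17.8. Of the 14 kept genes, Lama2 alone had a 2-fold range, at 252, 86.4 and 104, where 9.92% of all genes had one. Replicate 3 was highest in 11 of the 14, against 44.1% of all genes.

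Endothelial transcripts were measured almost completely. Of 33 genes with a probe set 32 were kept, 8 were among the 500 brightest, and the median signal was 4028. Emcn, the sialomucin endomucin, read 20780, 21720 and 23173 (21891 ± 1206), and Ehd3, an endocytic protein of glomerular endothelium, 19522 ± 2683. The VEGF receptors Kdr and Flt1 read 4770 ± 440 and 3342 ± 697, and the angiopoietin receptor Tek 7677 ± 1551. Pecam1 read 5322 ± 788 and Cdh5, VE-cadherin, 2540 ± 400. Nos3, the endothelial nitric oxide synthase, and the transcription factor Gata5 were nearly constant at 721 ± 30.2 and 821 ± 15.8. Vwf, a marker of larger vessels, was below the cut, at 39.8, 5.93 and 6.70.

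Lpl, the lipoprotein lipase held on capillary walls, was the 1 endothelial-list gene of 32 with a 2-fold range, against 9.92% of all genes. Its signals were 7015, 11841 and 22626, a different level in each array and a range of 1.69. A second Lpl probe set read 744, 1109 and 2615, in the same order. The list mean was 11.90, 11.93 and 12.19, a range of 0.29 that was 0.035 without replicate 3. The summed signal of the list was 181382, 194589 and 234228.

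Mesangial and smooth muscle transcripts were bright, and none of the 18 kept genes had a 2-fold range, where 9.92% of all genes had one. Itga8, the integrin chain that anchors mesangial cells, read 17073, 17887 and 19016 (17992 ± 976). Pdgfrb, the receptor through which mesangial cells are recruited, read 13852 ± 1362. Sfrp2, a secreted Wnt antagonist, read 16200 ± 2348, and Agtr1a, an angiotensin II receptor, 9659 ± 1111. The contractile genes Acta2 and Myh11 read 3181 ± 305 and 414 ± 35.6, and Cnn1, Lmod1 and Thy1 were below the cut. The list mean was 11.42, 11.69 and 11.81. Replicate 1 was the lowest array in 15 of the 18 genes, against 30.3% of all genes, and without replicate 1 the range of the list mean was 0.12, not 0.39. Replicate 1 was also lowest in 15 of 22 podocyte structural genes and 17 of 32 endothelial genes. Replicate 3 was highest in 13 of the 18 mesangial genes, against 44.1% of all genes. Its list mean lay 0.26 above that of the other arrays, where the endothelial list mean lay 0.28 above.

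Parietal epithelial genes were fewer and dimmer, and several are shared with tubule cells. The tight junction genes Cldn1 and Cldn2 read 666, 712 and 330, and 4229, 4137 and 984. A second Cldn1 probe set read 167, 178 and 150 and did not repeat the 2-fold range, while a second Cldn2 probe set had a range of 2.25. Cdh16, a kidney cadherin that tubules also express, read 7229, 7555 and 1826. A 2-fold range was seen in 8 of the 14 genes, all with replicate 3 below, where 7.07% of all genes had such a range. Pax8, the epithelial transcription factor of the nephron, was one of these, at 397, 473 and 169, whereas Akap12, Ncam1 and Cd44 had ranges under 0.40.

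Tubule transcripts ranged from bright in the proximal tubule, with a median signal of 3613, to dim in the collecting duct, with a median of 214. The lists with the widest difference between the arrays were those of the proximal tubule and the loop of Henle. Of 67 genes of the proximal tubule, loop of Henle, distal tubule and collecting duct with a probe set, 65 were kept, and 17 were among the 500 brightest, none of them from the collecting duct. A 2-fold range was seen in 51 of the 65, in 50 of them with replicate 3 below, where such a range with replicate 3 below was seen in 7.07% of all genes. Replicate 3 was the lowest array in 61 of the 65 genes, against 37.6% of all genes. Their list mean in replicate 3 lay 1.48 below that of the other arrays on the log2 scale.

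In the proximal tubule, which reclaims phosphate, glucose, amino acids and filtered protein, 30 of 32 kept genes had a 2-fold range. Slc34a1, the phosphate transporter NaPi-IIa, read 9349, 11021 and 2417. Slc5a2, the glucose transporter SGLT2, read 4282, 4281 and 790. Lrp2 and Cubn, the endocytic receptors megalin and cubilin, read 5318, 6057 and 1018, and 3230, 4017 and 628. Replicates 1 and 2 thus lay close together and replicate 3 was several-fold lower. The enzymes Miox and Fbp1, for inositol breakdown and gluconeogenesis, read 16425, 17154 and 3193, and 13280, 15750 and 2716. Hnf4a, the nuclear receptor that maintains proximal tubule identity, read 3290, 3937 and 728.

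The list mean of proximal tubule genes was 12.07, 12.40 and 10.28, a range of 2.13, and 0.33 without replicate 3. The summed signal was 213169, 254889 and 76568. Not every member followed: Cyp4b1 read 11955, 12674 and 12329, with a range of 0.084. Slc22a6, the organic anion transporter OAT1, was highest in replicate 2, at 156, 856 and 180. Replicate 2 was the highest array in 29 of the 32 genes, where it was highest in 29.6% of all genes. The gap to replicate 1 was wide in Slc6a19, a neutral amino acid transporter, at 1257, 2359 and 314, and in Slc5a12, a lactate transporter, at 3342, 5729 and 707.

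The first bases around the start sites of proximal tubule genes often held the core of an HNF1 site, the element bound by the HNF1 homeodomain factors of kidney epithelium. The core searched was GTTAAT on both strands, in 250 bases before to 50 bases after each RefSeq start. Of 27 kept proximal tubule genes with such a sequence 10 held it (37.0%), where 5.64% of the 9064 kept genes with a sequence did. The HNF4 site CAAAGTCCA was found in 2 of the 27 (7.41%), against 0.574%. A match is a description of these letters, not a bound site. Slc34a1 (chr13:55399398-55399697, plus strand, GRCm38.p6) and Miox (chr15:89334223-89334522, plus strand) are shown because both were several-fold lower in replicate 3, with matches in capitals and sequence from RefSeq.
Slc34a1: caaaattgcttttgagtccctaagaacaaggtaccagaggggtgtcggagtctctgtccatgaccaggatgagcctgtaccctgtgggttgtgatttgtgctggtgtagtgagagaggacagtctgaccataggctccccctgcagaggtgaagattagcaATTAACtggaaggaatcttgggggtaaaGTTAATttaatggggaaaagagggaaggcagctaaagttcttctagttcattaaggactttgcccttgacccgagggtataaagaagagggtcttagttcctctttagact
Miox: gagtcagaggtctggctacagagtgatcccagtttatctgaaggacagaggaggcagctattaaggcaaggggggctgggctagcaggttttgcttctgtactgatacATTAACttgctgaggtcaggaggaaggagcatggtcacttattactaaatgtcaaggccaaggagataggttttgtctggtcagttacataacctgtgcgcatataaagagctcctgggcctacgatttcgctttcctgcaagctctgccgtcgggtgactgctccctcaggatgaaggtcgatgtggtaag

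Later segments of the nephron were lower in replicate 3 as well. All 9 loop of Henle genes had a 2-fold range with replicate 3 below. Umod, uromodulin, read 26921, 27167 and 11354, and Slc12a1, the sodium-potassium-chloride transporter NKCC2, read 9201, 10238 and 2733. In the distal and connecting tubule 4 of 8 genes had such a range, and in the collecting duct 8 of 16. Slc12a3, the thiazide-sensitive transporter, read 2852, 2853 and 1508, and Aqp2, the vasopressin-regulated water channel, read 406, 496 and 408. Replicate 3 differed from the mean of the other arrays by -1.96 in the proximal tubule, -1.60 in the loop of Henle, -0.79 in the distal and connecting tubule and -0.79 in the collecting duct.

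**Figure D2:**
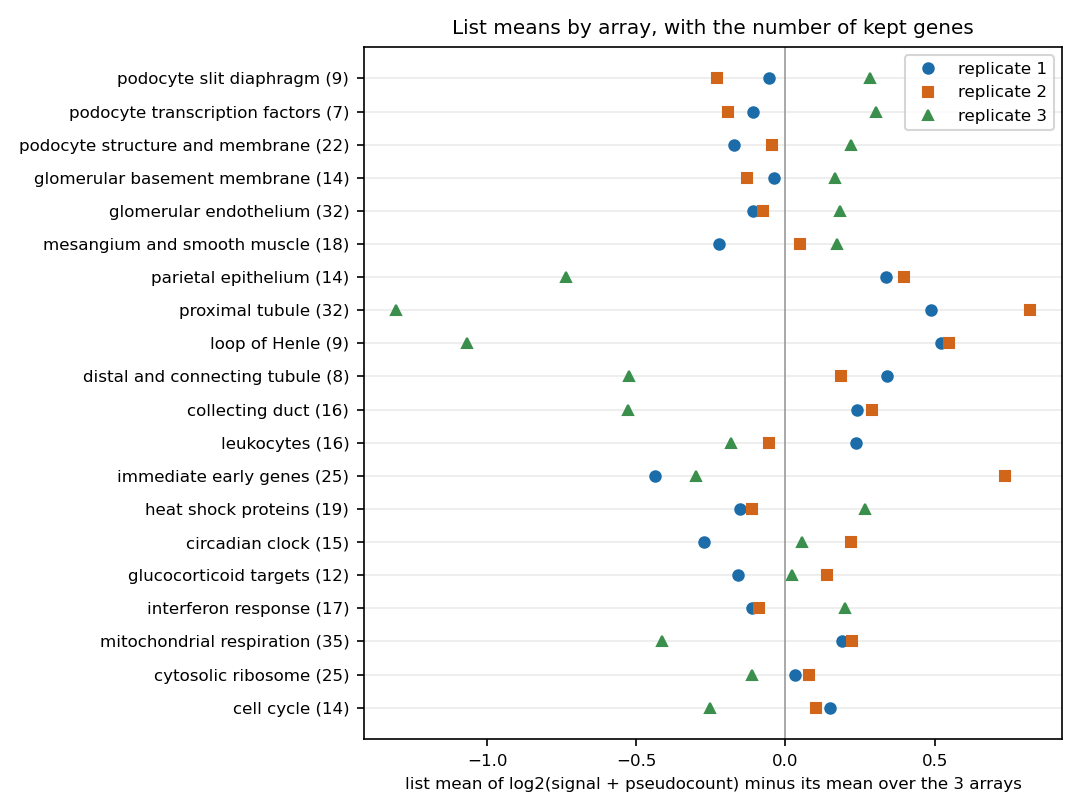
Mean of log2(signal + 27.9) over the kept genes of each list in each wild-type array, minus its mean over the 3 arrays, with the number of kept genes in parentheses. Replicate 3 lies to the left for the tubule lists, the parietal list and mitochondrial respiration. It lies to the right for podocyte, endothelial and mesangial lists. Replicate 2 lies to the right for immediate early genes (11.36, 12.54 and 11.50).

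Nuclear genes of mitochondrial respiration, which tubule cells express strongly, were lowest in replicate 3 in 35 of 35 kept genes, against 37.6% of all genes. The differences were modest: Cox7a2 read 20535, 20869 and 13512, and Atp5b, the catalytic subunit of ATP synthase, 17440, 19919 and 12752. Uqcrc2 was the 1 gene of the 35 with a 2-fold range, where 9.92% of all genes had one. It read 7336, 8261 and 3648, and its second probe set had a range of 0.64. The list mean was 12.89, 12.92 and 12.28. The tubule lists were low in the same array, and their part in this difference was not tested. Cytosolic ribosomal protein genes varied least of all lists with over 1 kept gene, and 22 of 25 were among the 500 brightest. By their brightest probe sets the median range was 0.20 and none was at 2-fold, where 9.92% of all genes were. A second Rps9 probe set, however, read 4091, 245 and 3712, a range of 3.91.

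Transcripts of immune cells were dim, and so were the few erythroid transcripts measured. Of 27 leukocyte genes with a probe set 11 were below the cut, among them the T cell genes Cd3e and Cd3g, the B cell genes Ms4a1, Cd79a and Cd79b, and the complement genes C1qa, C1qb and C1qc. The brightest were Lyz2, the lysozyme of macrophages and neutrophils, at 1729, 1149 and 780, and Csf1r, the receptor of macrophage growth factor, at 1012 ± 182. The erythroid genes Alas2 and Hbb-b2 read 384, 323 and 177, and 410, 132 and 150, a second Hbb-b2 probe set had a range of 0.21, and both α-globin genes were below the cut. Of the 11 erythroid genes listed, only 5 had a usable probe set, since those with several symbols were left out. Red cell transcripts were thus covered only in part. Proliferation genes were dim as well, with Mki67 at 209 ± 9.36 and Top2a at 166 ± 21.4, apart from Pcna, the DNA polymerase clamp, at 5375 ± 266. Interferon-stimulated genes were measured at moderate signal, from Rsad2 at 1587 ± 135 down to Stat2 at 249 ± 36.4, while Mx1 and Mx2 were below the cut.

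Immediate early genes are switched on within minutes of a growth, stress or handling signal and encode short-lived regulators. In these arrays they were high in replicate 2. Of 25 kept genes, replicate 2 was the highest array in 22, where it was highest in 29.6% of all genes. A 2-fold range with replicate 2 above was seen in 11 of the 25, where it was seen in 0.565% of all genes. The list mean was 11.36, 12.54 and 11.50, and without replicate 2 its range was 0.14, not 1.17.

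Among the transcription factors of this group, Fos read 9603, 25604 and 10270 and Egr1 read 4376, 25272 and 4640. Fosb and Atf3 differed most, at 194, 2190 and 299, and 491, 3427 and 442. Jun, the partner of Fos in AP-1, read 7414, 16984 and 10115, and Junb 1549, 6310 and 1573. In each of these replicate 2 lay above both other arrays, and replicate 3 was above replicate 1 in all but Atf3. Replicate 2 was also highest in feedback regulators. Dusp1, a phosphatase of MAP kinases, read 13247, 23963 and 17571, with replicate 3 between the others. Zfp36, which destabilises mRNA, read 2537, 9921 and 3159, and Btg2, an antiproliferative gene, 1983, 8438 and 3283. Socs3, an inhibitor of cytokine signalling, had another order, at 5887, 11473 and 2342, and a second probe set read 2850, 8339 and 1538. Klf10 was lowest in replicate 2, at 1654, 1211 and 1637.

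The cAMP response element TGACGTCA, bound by CREB-family factors, was found on either strand of the 300 bases around the start in 3 of 21 immediate early genes (14.3%), namely Btg2, Dusp1 and Errfi1, against 3.46% of all 9064 genes. The AP-1 site TGANTCA was found in 0 of the 21, against 5.84%, and the CArG box of serum response factor in 1, Zfp36 (4.76%), against 1.59%. No match says only that these letters are not in this window. The promoters of Btg2 (chr1:134079106-134079405, minus strand, GRCm38.p6) and Dusp1 (chr17:26508423-26508722, minus strand) are shown with the element in capitals, because both genes were highest in replicate 2.
Btg2: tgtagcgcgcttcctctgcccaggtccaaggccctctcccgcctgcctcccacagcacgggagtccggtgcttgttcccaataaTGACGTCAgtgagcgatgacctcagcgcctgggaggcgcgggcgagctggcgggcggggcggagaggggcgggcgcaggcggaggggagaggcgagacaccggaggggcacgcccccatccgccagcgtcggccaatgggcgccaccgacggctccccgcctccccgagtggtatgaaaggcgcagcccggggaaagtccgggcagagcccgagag
Dusp1: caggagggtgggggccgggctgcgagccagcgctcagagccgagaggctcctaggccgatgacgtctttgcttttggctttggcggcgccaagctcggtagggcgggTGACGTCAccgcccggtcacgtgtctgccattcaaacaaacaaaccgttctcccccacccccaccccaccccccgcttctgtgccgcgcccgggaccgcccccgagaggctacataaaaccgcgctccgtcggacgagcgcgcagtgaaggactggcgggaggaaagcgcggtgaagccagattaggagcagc

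Circadian clock genes also set replicate 2 apart, and in both directions. The clock is a feedback loop in which Arntl (BMAL1) with Clock or Npas2 drives E-box genes, among them Nr1d1 and Nr1d2 (REV-ERB), Dbp, Tef and the Per and Cry repressors, while REV-ERB proteins repress Arntl, Npas2 and Nfil3 through ROR elements. A 2-fold range was seen in 12 of the 15 kept genes, against 9.92% of all genes. In 6 of them replicate 2 lay above the other arrays, against 0.565% of all genes.

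The output and REV-ERB genes were high in replicate 2. Dbp, a D-box activator, read 130, 2770 and 208. This was the second largest range of the properly named genes among the 63 of 2-fold range with replicate 2 above. A second Dbp probe set read 116, 1195 and 152. Nr1d1 read 291, 826 and 249, and Nr1d2 read 3068, 9151 and 3399. Hlf and Tef, relatives of Dbp, read 474, 1121 and 302, and 936, 1937 and 1068, and the E-box repressor Bhlhe40 read 717, 1360 and 512. In each of these genes replicate 2 lay above both other arrays.

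Npas2 and Arntl, which drive E-box genes, were low in replicate 2, and so was Nfil3. Npas2 read 446, 51.7 and 519, Arntl read 971, 352 and 1088, and Nfil3, a D-box repressor, read 335, 119 and 292. A second Arntl probe set read 239, 82.5 and 151, again lowest in replicate 2. Cry1 was lowest in replicate 2 but differed in all arrays, at 221, 96.2 and 547. The Per genes gave another order, with Per2 at 130, 410 and 332 and Per1 at 991, 1138 and 1485, and Clock itself read 2272 ± 337. A second Clock probe set read 764, 608 and 1729, a range of 1.47 with replicate 3 above. The sources used here give no time of day of collection, and its part in these differences was not tested.

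The E-box CACGTG was found in the start region of 3 of 13 clock genes (Cry1, Per1 and Tef, 23.1%), against 11.9% of all genes, and the D-box TTATGTAA in 1 (Per3, 7.69%), against 0.651%. The ROR core AGGTCA, searched on both strands, was found in 5 of 13 (Arntl, Clock, Nfil3, Nr1d2 and Per1, 38.5%), against 14.7%. Tef (chr15:81802423-81802722, plus strand, GRCm38.p6), high in replicate 2, is shown with its E-box in capitals, and Arntl (chr7:113207261-113207560, plus strand), low there, with its ROR core in capitals.
Tef: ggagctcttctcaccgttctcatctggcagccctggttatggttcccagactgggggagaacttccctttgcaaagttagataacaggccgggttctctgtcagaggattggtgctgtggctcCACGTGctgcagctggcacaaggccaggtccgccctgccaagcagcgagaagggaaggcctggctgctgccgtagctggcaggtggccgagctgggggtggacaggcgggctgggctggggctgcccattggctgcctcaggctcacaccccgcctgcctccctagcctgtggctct
Arntl: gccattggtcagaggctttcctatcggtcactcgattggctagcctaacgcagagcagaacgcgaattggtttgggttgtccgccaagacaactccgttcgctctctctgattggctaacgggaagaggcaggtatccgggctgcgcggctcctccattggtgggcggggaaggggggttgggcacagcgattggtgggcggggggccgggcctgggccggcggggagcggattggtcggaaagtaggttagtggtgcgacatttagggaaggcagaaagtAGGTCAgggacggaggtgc

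**Figure D3:**
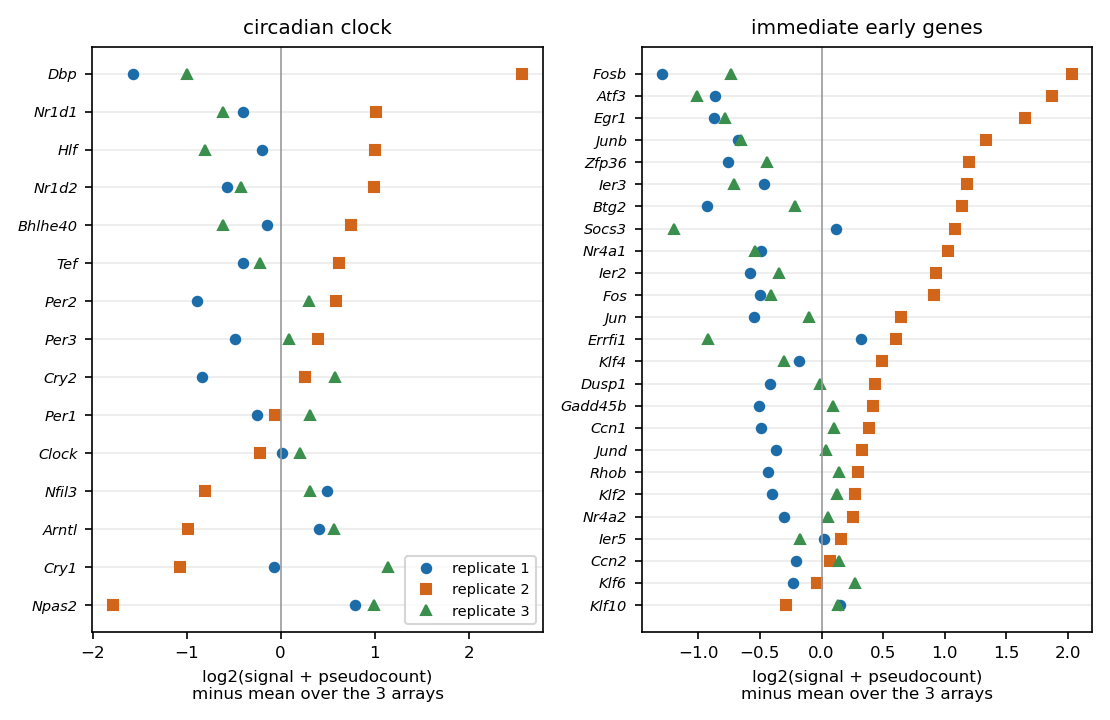
Log2(signal + 27.9) of each kept circadian clock gene (left) and immediate early gene (right) in the 3 wild-type arrays, minus the gene's mean over the arrays. Replicate 2 lies left for Npas2, Arntl, Nfil3 and Cry1 and right for Dbp, Nr1d1, Nr1d2, Hlf, Tef and Bhlhe40, and it is the rightmost in 22 of the 25 immediate early genes.

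Heat shock proteins, chaperones induced by unfolded protein, were highest in replicate 3 in 16 of 19 genes, where replicate 3 was highest in 44.1% of all genes. The inducible chaperones Hspa1a and Hspb1 had 2-fold ranges, at 3933, 6274 and 12323, and 6043, 6937 and 14226. They were 2 of the 19 genes (10.5%), close to the 9.92% of all genes. The other 17 had ranges under 1 by their brightest probe set, with Hsph1 at 3853, 3535 and 6139. The widest of these was Hspa4l at 643, 551 and 1107, a range of 0.97 with the pseudocount and a signal ratio of 2.01. A second Hspa1b probe set read 7091, 7503 and 21833, a range of 1.62, against 0.41 for the brighter one. Hspa1a and Hspa1b are near-identical genes, so their probe sets may not tell them apart. The list mean was 12.04, 12.08 and 12.46. The mitochondrial chaperones Hspd1 and Hspe1 were lowest in replicate 3, at 7426, 7951 and 6338, and 4484, 4357 and 3726. The heat shock element, 3 alternating repeats bound by heat shock factors, was found on either strand in 4 of 16 of these genes (Chordc1, Hspd1, Hspe1 and Hsph1, 25%), against 0.574% of all genes. Hsph1 (chr5:149636287-149636586, minus strand, GRCm38.p6) is shown with the element in capitals.
Hsph1: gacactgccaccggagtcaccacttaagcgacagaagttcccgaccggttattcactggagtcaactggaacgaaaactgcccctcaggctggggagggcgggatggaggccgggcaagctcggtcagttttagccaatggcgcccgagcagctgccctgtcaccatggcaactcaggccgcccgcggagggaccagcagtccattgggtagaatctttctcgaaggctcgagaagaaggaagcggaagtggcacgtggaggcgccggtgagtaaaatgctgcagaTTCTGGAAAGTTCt

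Genes of the glucocorticoid response had no common direction. Sgk1, a kinase of sodium transport, read 17060, 20178 and 14786, and Klf9 was steady at 15241 ± 827. Tsc22d3 (GILZ) was highest in replicate 3, at 5255, 5363 and 11148, whereas the metallothioneins Mt1 and Mt2 were highest in replicate 2, at 1917, 3082 and 1351, and 1110, 2137 and 692. A 2-fold range was seen in 4 of the 12 genes, against 9.92% of all genes.

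Over all 11153 genes the median range was 0.37 and the median coefficient of variation 14.2%. A range of 2-fold or more was seen in 1106 genes (9.92%) and of 4-fold or more in 243, while 3418 (30.6%) stayed under 0.25. Dim genes varied more: the share with a 2-fold range was 15% in the dimmest 25% of genes and 9.47%, 7.89% and 7.35% in the next groups of equal size. In 788 of the 1106 genes (71.2%) replicate 3 lay below the other arrays, in 116 above. Replicate 2 lay above in 63 and below in 43, and replicate 1 above in 42 and below in 54. Over all genes, replicate 3 was the array below in 26.4% and above in 28.9%. Without replicate 3, and with genes and probe sets chosen again from replicates 1 and 2 alone, 130 genes had a 2-fold difference between these arrays. Among the 11153 genes the count for this pair was 135.

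**Figure D4:**
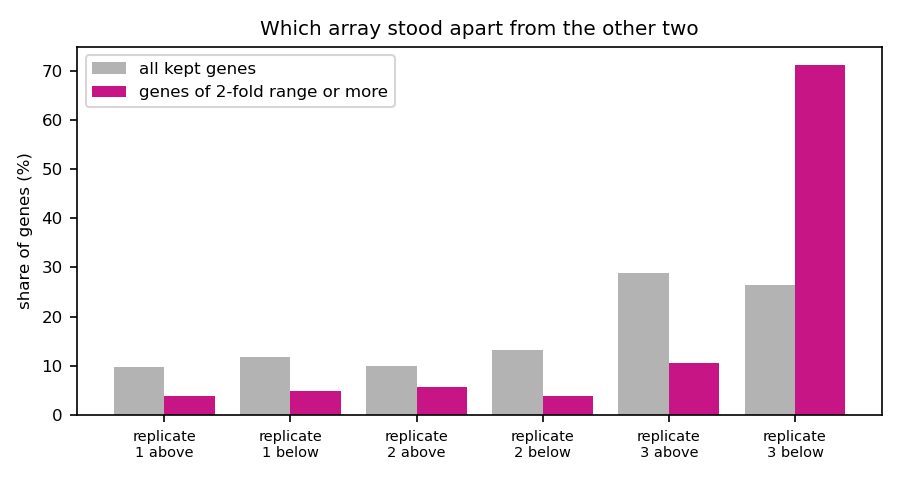
Share of genes (%) by the array that stood apart from the other two and its direction, for all 11153 kept genes (grey) and for the 1106 with a range of 2-fold or more (magenta). Replicate 3 below accounts for 71.2% of the wide-ranging genes and 26.4% of all genes.

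A second probe set of the same gene gave a check of the wide ranges. Of 362 genes with a 2-fold range and a second kept probe set, the second put the same array apart in the same direction in 292 (80.7%), against 33.2% of genes under 2-fold. The share was 89.7% for replicate 3 below (235 of 262) and 15 of 18 for replicate 2 above. It was 24 of 41 for replicate 3 above and 8 of 14 for replicate 2 below. For replicate 1 above it was 4 of 12, and for replicate 1 below 6 of 15. These classes with replicate 1 apart hold few genes, and the difference between the shares was not tested. The second probe set itself had a 2-fold range in 230 of the 362 genes (63.5%).

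The 15 widest ranges with replicate 3 below were taken among genes with a proper name. They included 2 genes of the proximal tubule list, Slc5a12 and Ttc36, and 13 genes outside the lists. The largest was that of Rnf183, a ubiquitin ligase, at 300, 237 and 5.51, and Gjb1, a connexin of gap junctions, read 169, 247 and 5.15. Among transporters, Slc22a22, which carries organic anions, read 1468, 1546 and 144, Slc2a2, the glucose transporter GLUT2, 2681, 4112 and 473, and Slc7a7, a cationic amino acid transporter subunit, 2746, 3132 and 353. Nox4, an NADPH oxidase abundant in kidney, read 4112, 5276 and 672, and a second probe set read 2138, 2729 and 243. Ttr, the thyroxine carrier transthyretin, read 6940, 7248 and 796. Vil1, villin of the brush border, read 709, 677 and 68.2, and Abcb1b, a drug efflux pump, 1451, 1308 and 132. In each of these, replicate 3 was several-fold below both other arrays.

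The widest differences with replicate 2 above included Mettl7a1, which had the largest range of all genes, 4.75, at 205, 2391 and 62.0. A second probe set of Mettl7a1 read 275, 1921 and 162. Beside Dbp, Fosb, Atf3 and Egr1, this class held Nfkbiz, an inducible regulator of NF-κB, at 480, 2261 and 432. A second Nfkbiz probe set did not repeat the pattern, at 216, 479 and 403. Pm20d1, an enzyme that makes N-acyl amino acids, read 505, 1997 and 331, and Mogat1, an acyltransferase of triglyceride synthesis, 439, 1261 and 143.

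With replicate 3 above, the largest range among genes with a proper name was that of Rpgrip1, a ciliary protein known from photoreceptors, at 170, 119 and 2911. Pdia4, a disulfide isomerase of the endoplasmic reticulum, read 671, 487 and 2030. Cdk14, a cyclin-dependent kinase, read 695, 729 and 2240. Cyp26a1, which degrades retinoic acid, read 57.9, 119 and 584. Its relative Cyp26b1 fell in the class with replicate 1 below, at 86.3, 577 and 1316, so both retinoic acid hydroxylases were highest in replicate 3 and lowest in replicate 1.

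With replicate 1 below, Pam, the enzyme that amidates peptide hormones, read 225, 2241 and 3349. Gnb1, a G protein β subunit, read 1673, 5677 and 7482, but a second probe set read 3122, 3717 and 5045, a range of 0.69. Arl2bp, a binding partner of the small GTPase Arl2, read 173, 757 and 771, and a second probe set repeated this at 135, 506 and 573. The Arl2bp difference was therefore seen by both probe sets, and that of Gnb1 was much smaller by the second.

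The steadiest properly named genes of the 2000 brightest differed between arrays by under 2% by their brightest probe set. Laptm4b, a lysosomal membrane protein, read 5675, 5680 and 5649 (5668 ± 16.5), and the ubiquitin-conjugating enzyme gene Ube2e1 read 4339, 4369 and 4340. Pcbp2, an RNA-binding protein, read 7988 ± 34.0, Igf1r, the receptor of insulin-like growth factors, 5855 ± 35.6, and Cfl1, the actin-severing cofilin, 11234 ± 76.4. Second probe sets varied more, with ranges of 0.17 for Laptm4b, 0.30 for Ube2e1, 0.78 for Pcbp2, 0.075 for Igf1r and 0.15 for Cfl1. These were picked as the smallest of many ranges over 3 arrays, and their spread in other mice was not measured.

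**Figure D5:**
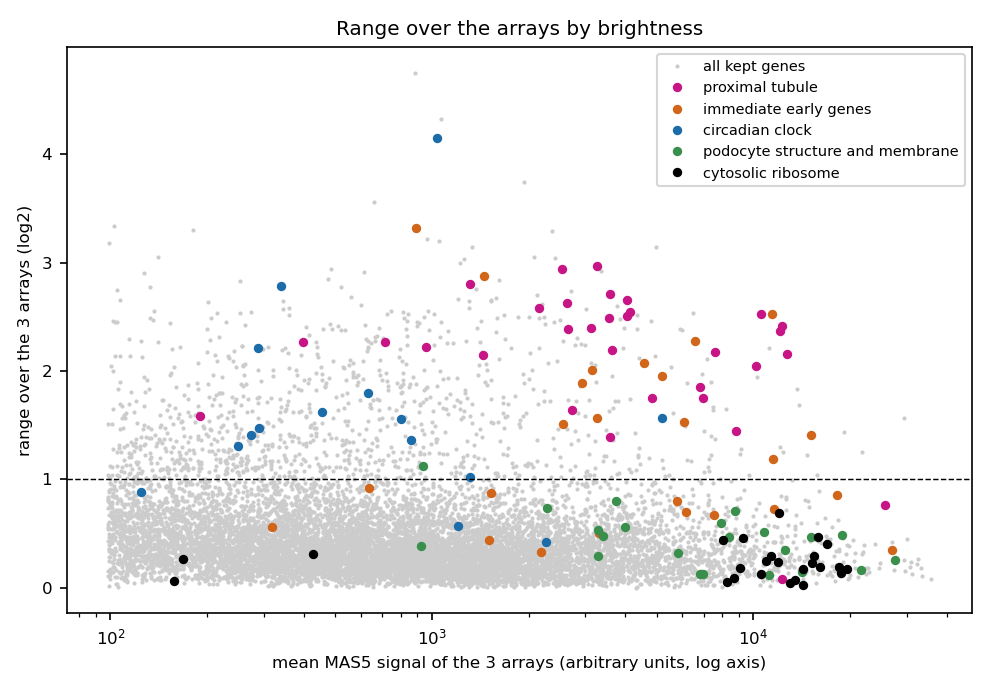
Range over the 3 wild-type arrays (log2) against mean MAS5 signal (arbitrary units, log axis) for all 11153 kept genes in grey and 5 lists in colour, with a dashed line at a 2-fold range. Proximal tubule genes lie above the line in 30 of 32 cases and clock genes in 12 of 15, while ribosomal protein genes (median range 0.20) and podocyte structural genes (1 of 22 above) lie below it.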

How the data were processed

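Total RNA from glomeruli of 3 wild-type mice was hybridised to Affymetrix arrays, and groups were taken from the labels. The authors deposited linear intensities, computed with MAS5 per the submitters' processing notes, in a version that the sources used here do not give. Once 2% of values at either end are trimmed, every array averages 500, so the arrays had been scaled to a shared target. Detection calls were left aside, and all 3 arrays were used.

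Of 45101 probe sets, 64 are controls, 34945 had 1 gene symbol, 932 several and 9160 none. Those with several or none were left out. For 34741 of the singly named ones, the Entrez number was found in a RefSeq table of the mouse (GRCm38.p6), which gave names and chromosomes, since a platform annotation can be old. The brightest kept probe set stood for a gene, and 5220 of the 11153 genes had several. The pseudocount of 27.9 is the 25th percentile of all values and shrinks the differences of dim genes. The array that stands apart in a gene is the one across the wider of the gaps between the ordered values.

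No test was made, since the arrays form 1 group, and the scripts were checked on simulated data. The 22 lists and the members were chosen with earlier results of these data known. The rule names the 25 brightest genes, the 15 of largest range in each class of over 50 genes, the 10 of smallest range among the brightest 2000, from each list the 6 brightest and the 3 of largest range, and Vhl, Xist and Y-linked genes, passing over genes without a proper name. Other genes named were chosen after their values were seen. Python 3.11.15 with pandas 2.3.3 and numpy 2.4.6 was used. Alternatives were 2 other pseudocounts, 2 other filters, 2 other scalings, the median of a gene's probe sets, and each array left out in turn.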

Additional observations from a re-analysis of the deposited data

How the results depend on the processing

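Of 710 values recomputed under 10 alternatives, 640 stayed within the spread of the arrays or, for counts, within 1.5 times, 68 moved and 2 changed sign. For the range of a list mean, that spread was the SD of the same 3 array means. It holds the difference itself, as in the proximal tubule, with an SD of 1.14 beside a range of 2.13. The limit was therefore loose, and the count of 640 is no measure of robustness. With no filter on low values the median range was 0.45, the count of genes with a 2-fold range 2716 and the count with replicate 2 above 309. With the upper 30% of probe sets, the 2-fold count was 638 and the count with replicate 3 below 487, since fewer genes were included, and the circadian clock mean in replicate 3 minus the other arrays became -0.43. With median scaling, podocyte structural genes in replicate 2 minus the others became 0.0090. With the median of a gene's probe sets, 1 podocyte transcription factor was among the brightest 500, not 2. Scaling moved the median of all genes by under 0.1 on the log2 scale.

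With 1 array left out in turn, the median range lay between 0.15 (without replicate 3) and 0.27 (without replicate 1), and the 2-fold count between 130 (without replicate 3) and 887. The range of the list mean lay between 0.16 and 0.51 for the slit diaphragm, 0.083 and 0.50 for podocyte transcription factors, 0.13 and 0.39 for podocyte structure, 0.035 and 0.29 for endothelium, 0.12 and 0.39 for mesangium, 0.33 and 2.13 for proximal tubule and 0.14 and 1.22 for immediate early genes. Podocyte transcription factors among the brightest 500 numbered 1 to 2. A range over fewer arrays cannot be wider for a gene, so part of these falls follows from the count of arrays. No paired analysis was possible because the results come from 1 group and from no test.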

Other observations

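The smaller classes of wide-ranging genes were looked at after their values were seen. With replicate 1 above, Pttg1, the securin of sister chromatids, read 5531, 1044 and 541, and a second probe set read 1406, 384 and 142, in the same order. Amacr, a racemase of branched-chain fatty acid oxidation, read 1101, 247 and 184. Mcm6, a subunit of the replicative helicase, read 777, 271 and 189, while Mki67 read 212, 216 and 198. Thus Pttg1 and Mcm6 were high in replicate 1 and the proliferation marker Mki67 was not. With replicate 2 below, Cd59a, an inhibitor of complement on the cell surface, read 4592, 1811 and 4928, and Plau, urokinase, read 1215, 436 and 1193.

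Genes on chromosome 1 were frequent among those in which replicate 1 stood apart by 2-fold or more. They were 16 of 96 genes (16.7%), where chromosome 1 held 621 of all kept genes (5.57%). With replicate 1 above they were 9 of 42 (21.4%), among them Mcm6, Ifi213 (268, 43.6 and 32.4), Bpnt1 (3561, 1793 and 1079) and Chml (1298, 391 and 519). A second Bpnt1 probe set read 1524, 1293 and 970, with replicate 3 apart, and a second Mcm6 probe set read 407, 131 and 68.9, with replicate 1 above. With replicate 2 above, chromosome 1 held 9 of 63 (14.3%). These shares were picked after all classes and chromosomes had been looked at, and no test was made. The sources used here give no strain background for these mice.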
